A study of Mus musculus with 17 samples.

Results

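Tubules that border a tumour were compared with normal-looking tubules of the same animals in *Inha* KO mice, which lack the inhibin alpha subunit. Tumour associated tubules (TAT) and KO 'normal' tubules (N) were dissected from 3 *Inha* KO animals (79781, 79813 and 79853), strain C57/Bl6, aged postnatal day 48 to 52 by the sample labels and 53 to 55 by their protocol. KO animal 79813 gave N and TAT pieces from each testis and the others 1 piece of each, so that the comparison held 8 of the 17 libraries of the series, and the others were 6 tumour (TM) libraries of the same animals and 3 *Inha* WT libraries. The pieces of KO animal 79813 were summed per region, which left 3 N and 3 TAT libraries of 17413661 to 61798383 counts. All 23362 genes of the table were considered. The gene removed in every animal compared, *Inha*, had 1.55, 0.5097 and 0.84 CPM in N and 1.57, 1.73 and 1.41 CPM in TAT, against 62.9, 70.5 and 64.3 CPM in the WT animals. *Inha* was thus low in every KO library of this comparison. The sources do not describe the deleted segment or whether the animals were littermates.

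Germ cells develop inside seminiferous tubules, from spermatogonia at the basement membrane through meiotic spermatocytes to round and elongating spermatids near the lumen. Sertoli cells support them, peritubular myoid cells and a basement membrane enclose the tubule, and Leydig cells, vessels and macrophages lie between tubules. Inhibin opposes activin, a dimer of the beta subunits encoded by *Inhba* and *Inhbb*, and mice without it develop gonadal stromal tumours. The study collected N away from tumours and recognised TAT and TM by their strong vascularisation, and it describes the TAT pieces as holding tubules together with bordering interstitium. Vessel and blood genes were thus part of how TAT was picked. In whole pieces, fewer cells of a type and less RNA per cell cannot be told apart.

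With all 9 KO libraries fitted together and the animal as a block, 0 of 19293 genes tested were called (adjusted p under 0.05 and a fold above 1.5), in either direction, which is 0.0% of genes. The smallest adjusted p was 0.0661, shared by 298 genes of which 293 were higher in TAT. At an unadjusted p under 0.05 there were 4517 genes, 3220 higher and 1297 lower, and DESeq2 called 3747 and limma-voom 153 genes on the same libraries. Without KO animal 79813 the same edgeR fit called 1028 genes higher and 368 lower. A fit of the 6 N and TAT libraries alone, in which TM does not enter the estimate of spread, called 2367 of 18618 genes higher in TAT (12.7%) and 2167 lower (11.6%). These counts were 530 and 269 without KO animal 79781, 1164 and 782 without KO animal 79853, and 3161 and 3035 without KO animal 79813. Of the genes tested with 9 libraries, 5955 (30.9%) were higher in TAT than in N of the same animal in all 3 animals and 5904 (30.6%) lower in all 3. Values below are read counts scaled to library size (CPM, with TMM factors), given for KO animals 79781, 79813 and 79853 in that order (n = 3 animals), and each gene's level is compared only with its own. Log2 fold changes come from the 9-library fit, and of each pair of adjusted p the first is from the 9-library fit and the second from N and TAT alone. "Passed" refers to N and TAT alone, chosen for description after the 9-library fit had called no gene, and counts with an animal left out follow in the same order. Every count of list members passing stands beside the 12.7% of all genes that passed as higher and the 11.6% that passed as lower. Counts higher or lower in all 3 animals stand beside 30.9% and 30.6%.

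The pieces differed in how far TAT stood from N. The SD over genes of the log2 ratio of TAT to N was 1.45 in KO animal 79781, 0.845 in 79813 and 1.57 in 79853, and 38.1%, 15.6% and 45.4% of genes differed by more than 2-fold. KO animal 79813 had the smallest share of such genes, and it is the animal whose regions are sums of both testes (22.2% in testis 1 and 19.9% in testis 2). Among lists of cell type and pathway genes, the median of elongating spermatid genes lay lowest in each of the 3 animals. The highest median was that of granulosa cell genes in KO animals 79781 and 79853 and that of macrophage genes in 79813, among lists with at least 9 tested members. Another scaling moved all genes together: the median over all genes was 0.03 here, -0.16 with RLE size factors and 0.17 with total library size.

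**Figure D1:**
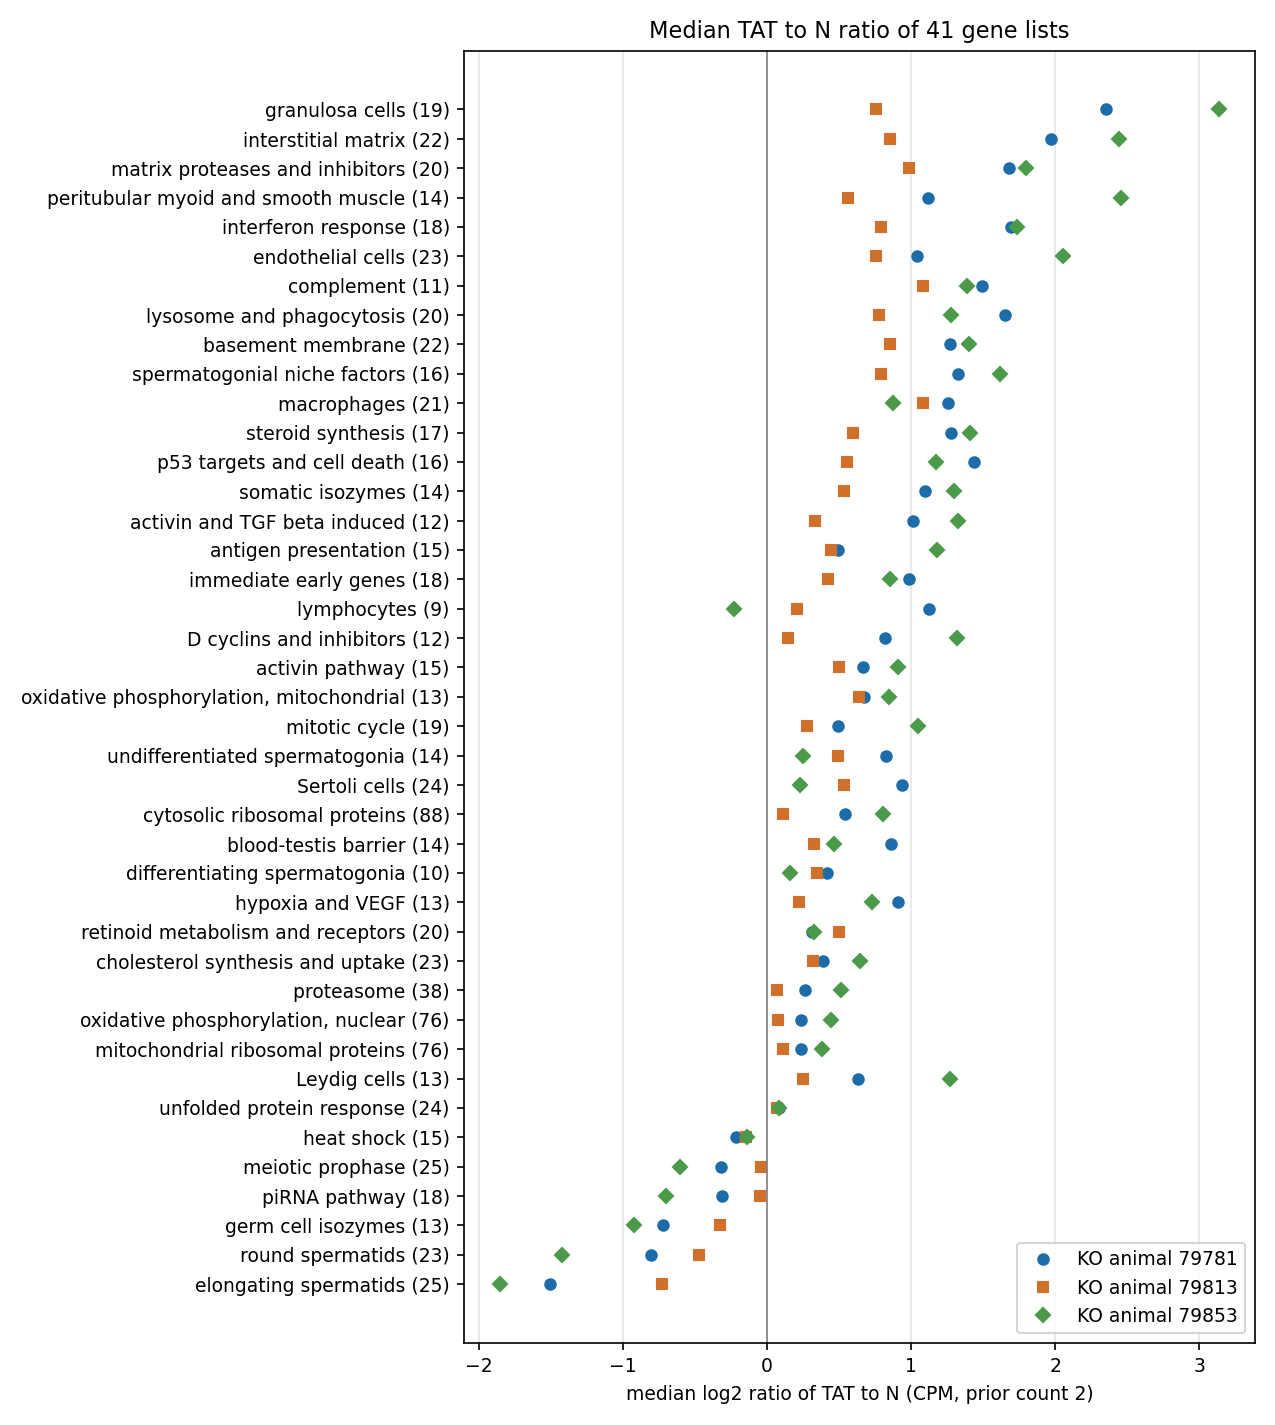
Median log2 ratio of TAT to N (CPM, prior count 2) of each gene list with at least 9 tested members, 1 point per KO animal, with the number of members in parentheses. Elongating spermatid genes have medians of -1.51, -0.73 and -1.85 and granulosa cell genes of 2.35, 0.75 and 3.14.

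Genes of late germ cells were lower in TAT. All 25 elongating spermatid genes tested were lower than N in every animal, with a median log2 fold change of -1.45 (-1.51, -0.73 and -1.85 in the 3 animals, against a median of 0.03 over all genes), and 25 of 25 passed (14, 25 and 22 with each animal left out), beside 11.6% of all genes passing as lower. *Prm1*, a protamine that replaces histones in the sperm nucleus, had 11282, 8926 and 7769.8 CPM in N and 3166, 4474 and 1674 CPM in TAT (log2 fold change -1.77 ± 0.46 (SE), adjusted p = 0.0871 and 0.00362). *Tnp2*, a transition protein that precedes the protamines, had 5416, 4317 and 3738 CPM in N and 1529, 2599 and 755 CPM in TAT (log2 fold change -1.72 ± 0.45 (SE), adjusted p = 0.0835 and 0.00362). In both genes each TAT library lay below all N libraries, and KO animal 79853 had the lowest TAT level. *Prm2*, the second protamine (named after its values were seen, as the neighbour of *Prm1*), had 5550.2, 4502 and 4162 CPM in N and 1949.9, 2303 and 1170.3 CPM in TAT (log2 fold change -1.49 ± 0.45 (SE), adjusted p = 0.111 and 0.00362). *Tssk6*, a spermatid kinase, had 568, 419 and 463 CPM in N and 144, 226 and 111 CPM in TAT (log2 fold change -1.72 ± 0.45 (SE), adjusted p = 0.0852 and 0.00362), and *Spata18* had 786, 501 and 486 CPM in N and 208, 298 and 115 CPM in TAT (log2 fold change -1.64 ± 0.34 (SE), adjusted p = 0.0675 and 0.00362). In all 5 genes TM lay below TAT of the same animal, with 481, 1444 and 174 CPM of *Prm1*. *Tssk6* overlaps *Ndufa13* on the opposite strand, and the sources do not say whether counting used strand.

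*Prm1*, *Prm2* and *Tnp2* are neighbours on the minus strand of chromosome 16, and since they were lower together, the 250 bases before their RefSeq starts (GRCm38.p6) are shown, with the letters of TATAAA, the core of a TATA box, in capitals where present on either strand.
Prm1 (chr16:10796824-10797073): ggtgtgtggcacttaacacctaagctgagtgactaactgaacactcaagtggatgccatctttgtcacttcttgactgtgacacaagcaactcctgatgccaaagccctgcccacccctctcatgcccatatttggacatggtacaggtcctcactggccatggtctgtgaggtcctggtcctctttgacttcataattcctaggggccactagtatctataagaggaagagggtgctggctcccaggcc
Prm2 (chr16:10792106-10792355): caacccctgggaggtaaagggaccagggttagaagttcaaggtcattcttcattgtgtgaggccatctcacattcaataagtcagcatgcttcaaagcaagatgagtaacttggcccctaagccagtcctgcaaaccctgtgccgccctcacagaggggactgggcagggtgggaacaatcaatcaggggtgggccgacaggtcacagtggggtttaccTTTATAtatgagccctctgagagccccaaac
Tnp2 (chr16:10788656-10788905): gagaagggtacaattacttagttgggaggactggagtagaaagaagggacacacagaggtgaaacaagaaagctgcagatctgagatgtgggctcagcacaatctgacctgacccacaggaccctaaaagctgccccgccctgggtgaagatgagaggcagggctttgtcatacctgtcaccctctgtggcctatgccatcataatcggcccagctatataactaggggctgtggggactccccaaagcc
Of 32851 RefSeq windows of this length, 12.4% held TATAAA and 6.47% TGACGT, the core of a cAMP response element, on either strand. Of the 22 elongating spermatid genes with a window, 4 held TATAAA and 2 held TGACGT, and of the windows shown only that of *Prm2* held either. Only exact matches to these letters were counted, so variant forms of either element in the other windows were not looked for.

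Genes of earlier germ cells had medians nearer 0. Of 23 round spermatid genes 22 were lower in all 3 animals (median log2 fold change -0.96), and 21 of 23 passed (1, 22 and 6 with each animal left out). *Tssk2*, a testis-specific kinase, had 623, 577 and 483 CPM in N and 279, 316 and 153 CPM in TAT (log2 fold change -1.27 ± 0.42 (SE), adjusted p = 0.133 and 0.00362). *Hook1*, which links organelles to microtubules, had 215, 197 and 175 CPM in N and 108, 144 and 60.9 CPM in TAT (log2 fold change -1.0 ± 0.32 (SE), adjusted p = 0.126 and 0.0099). For meiotic prophase genes the median was -0.34, and 11 of 25 were lower in all 3 animals and 1 higher. Of these 25 genes 3 passed as lower (0, 7 and 1) and 1 as higher (0, 1 and 0). Over all genes 11.6% passed as lower and 12.7% as higher, so that the share passing as lower was near the background. *Sycp3*, a protein of the synaptonemal complex, had 634, 722 and 574 CPM in N and 500.3, 637 and 486 CPM in TAT (log2 fold change -0.24 ± 0.39 (SE), adjusted p = 0.719 and 0.343), so that the groups overlapped. *Ddx4*, an RNA helicase of germ cells that the study names, had 450.3, 427 and 361 CPM in N and 335, 389 and 254 CPM in TAT (log2 fold change -0.37 ± 0.37 (SE), adjusted p = 0.563 and 0.186). *Ccna1*, the cyclin of male meiosis, had 132, 112 and 97.3 CPM in N and 54.4, 80.3 and 39.2 CPM in TAT (log2 fold change -1.101 ± 0.53 (SE), adjusted p = 0.255 and 0.00837). *Tex11*, a meiotic recombination gene on the X chromosome, was on the other side with 13.4, 17.5 and 16.3 CPM in N and 22.6, 29.5 and 31.6 CPM in TAT (log2 fold change 0.84 ± 0.32 (SE), adjusted p = 0.172 and 0.0214). For the piRNA pathway, which silences transposons, the median was -0.38. Of 17 members 2 passed as lower (0, 5 and 0), again near the 11.6% of all genes. These were *Tdrd6* with 202, 257 and 236 CPM in N and 137, 196 and 98.6 CPM in TAT and *Tdrd7* with 78.5, 66.9 and 85.96 CPM in N and 38.96, 51.9 and 33.7 CPM in TAT. *Hook1* (-0.96), *Ccna1* (-0.86), *Tex11* (0.88), *Tdrd6* (-0.79) and *Tdrd7* (-0.82) did not pass with N and TAT alone when KO animal 79781 was left out (log2 fold change then in parentheses), and *Hook1* (-0.73), *Tex11* (0.76), *Tdrd6* (-0.48) and *Tdrd7* (-0.69) when 79853 was.

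Spermatogonial genes had positive medians, and 2 of 13 and 3 of 10 members passed as higher, beside 12.7% of all genes. Of 14 genes of undifferentiated spermatogonia, 6 were higher in all 3 animals and 1 lower (median log2 fold change 0.56), and 2 passed (0, 1 and 1 with each animal left out). *Zbtb16*, which encodes the stem cell maintenance factor PLZF, had 1.93, 3.5 and 4.79 CPM in N and 8.76, 8.63 and 6.04 CPM in TAT (log2 fold change 1.29 ± 0.50 (SE), adjusted p = 0.174 and 0.0496). *Upp1* had 2.11, 0.951 and 1.06 CPM in N and 6.84, 2.37 and 6.36 CPM in TAT (log2 fold change 1.803 ± 0.67 (SE), adjusted p = 0.161 and 0.0247). *Gfra1*, the receptor for GDNF, had 3.998, 4.995 and 3.11 CPM in N and 3.29, 5.18 and 3.49 CPM in TAT (log2 fold change -0.05 ± 0.68 (SE), adjusted p = 0.97 and 0.994), with TAT on both sides of N among the animals and a direction that depended on the fit. Of 10 genes of differentiating spermatogonia 3 passed as higher (0, 3 and 1) and 1 as lower (0, 1 and 0), with a median of 0.47. *Stra8*, the retinoic acid target that prepares meiosis, had 36.8, 46.4 and 41.3 CPM in N and 69.4, 57.7 and 89.3 CPM in TAT (log2 fold change 0.82 ± 0.33 (SE), adjusted p = 0.191 and 0.0221), and *Dnmt3b*, a DNA methyltransferase, had 10.1, 9.89 and 9.21 CPM in N and 17.3, 14.6 and 19.5 CPM in TAT (log2 fold change 0.83 ± 0.26 (SE), adjusted p = 0.125 and 0.04). *Dmrtb1*, which controls the step from mitosis to meiosis, was the member lower in TAT, with 426, 451 and 351 CPM in N and 237, 355 and 169 CPM in TAT (log2 fold change -0.80 ± 0.49 (SE), adjusted p = 0.355 and 0.0189). *Dmrtb1* was lowest in TAT of KO animal 79853, in which *Stra8* and *Dnmt3b* were highest. *Zbtb16* (0.85), *Upp1* (1.97), *Stra8* (0.74), *Dnmt3b* (0.85) and *Dmrtb1* (-0.67) did not pass with N and TAT alone when KO animal 79781 was left out (log2 fold change then in parentheses), and *Zbtb16* (1.27) when 79813 was, and *Upp1* (1.504), *Stra8* (0.61), *Dnmt3b* (0.67) and *Dmrtb1* (-0.60) when 79853 was.

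**Figure D2:**
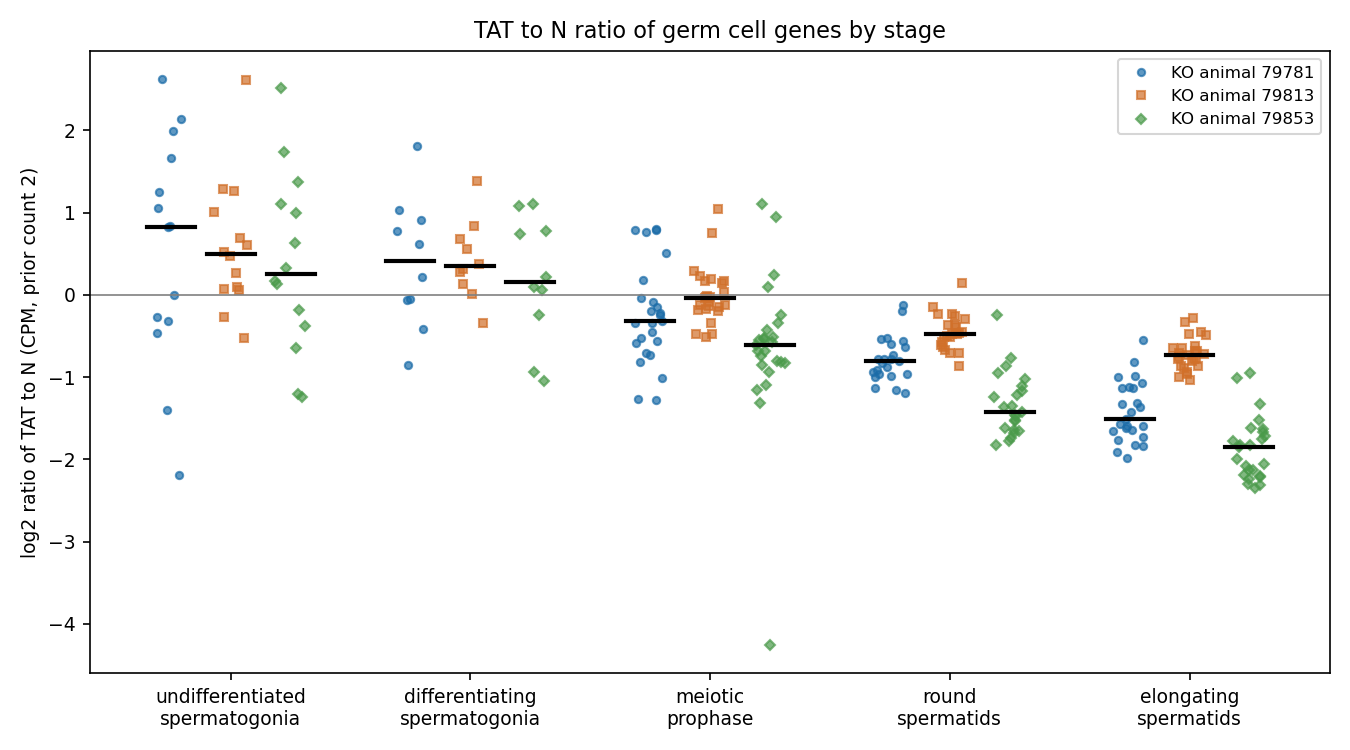
Log2 ratio of TAT to N (CPM, prior count 2) of each tested germ cell gene, by the stage that its list stands for and by KO animal, with the median as a black bar. The medians go from above 0 in spermatogonia to -1.51, -0.73 and -1.85 in elongating spermatids.

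Of enzymes with separate germ cell and somatic genes, most of the germ cell genes were lower and most of the somatic genes higher in all 3 animals, though not all of either passed. Of 13 germ cell isozymes, 12 were lower in all 3 animals (median log2 fold change -0.77) and 7 passed (0, 12 and 3). Of 14 somatic counterparts, 11 were higher in all 3 (median 1.07) and 10 passed (2, 10 and 7). *Pgk2*, the phosphoglycerate kinase of meiotic and later germ cells, had 396, 368 and 368 CPM in N and 186, 230.4 and 133 CPM in TAT (log2 fold change -1.13 ± 0.44 (SE), adjusted p = 0.176 and 0.00501), and *Gapdhs*, the sperm glyceraldehyde phosphate dehydrogenase, had 439, 257 and 339 CPM in N and 139.9, 147 and 110.0 CPM in TAT (log2 fold change -1.45 ± 0.58 (SE), adjusted p = 0.186 and 0.00362). On the somatic side, *Pdha1*, the X-linked pyruvate dehydrogenase subunit, had 6.75, 7.73 and 5.13 CPM in N and 21.2, 14.96 and 20.3 CPM in TAT (log2 fold change 1.57 ± 0.30 (SE), adjusted p = 0.0661 and 0.00568). *Cox7b*, a cytochrome oxidase subunit also on the X chromosome, had 27.2, 24.5 and 24.9 CPM in N and 115, 37.9 and 169 CPM in TAT (log2 fold change 1.91 ± 0.40 (SE), adjusted p = 0.0675 and 0.00494). *Cycs*, somatic cytochrome c, had 427, 387 and 338 CPM in N and 948, 583 and 772 CPM in TAT (log2 fold change 1.01 ± 0.22 (SE), adjusted p = 0.0686 and 0.00545). These 3 somatic genes were higher in TAT in all 3 animals, and 1 member of the somatic list was lower in all 3. Some ribosomal protein genes on the X chromosome also have germ cell copies. *Rpl10* had 83.9, 83.6 and 88.7 CPM in N and 338, 140.2 and 543 CPM in TAT (log2 fold change 1.86 ± 0.36 (SE), adjusted p = 0.0661 and 0.00385) and its copy *Rpl10l* 302, 296 and 285 CPM in N and 167, 251 and 142 CPM in TAT (log2 fold change -0.74 ± 0.37 (SE), adjusted p = 0.266 and 0.0285), and *Rpl39* had 49.1, 55.9 and 60.98 CPM in N and 204, 86.4 and 334 CPM in TAT while *Rpl39l* had 498, 475 and 461 CPM in N and 309, 388 and 255 CPM in TAT. Reads from such near-identical copies may have been divided between them in the estimated counts. Of 88 cytosolic ribosomal protein genes, 66 were higher in all 3 animals and 35 passed as higher and 2 as lower (4, 51 and 8 higher with each animal left out). Over all X-linked genes tested, 22.3% of 776 passed as higher and 12.2% as lower, beside the 12.7% and 11.6% over all genes. *Pgk2* (-1.04), *Gapdhs* (-1.18), *Cycs* (0.92), *Rpl10l* (-0.59) and *Rpl39l* (-0.54) did not pass with N and TAT alone when KO animal 79781 was left out (log2 fold change then in parentheses), and *Rpl10l* (-0.55) and *Rpl39l* (-0.49) when 79853 was.

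More Sertoli cell genes were higher than lower in TAT. Of 24 tested, 14 were higher in TAT than in N in all 3 animals and 0 lower (median log2 fold change 0.50), beside 30.9% and 30.6% of all genes. As higher 8 passed (1, 8 and 8 with each animal left out, with 3 passing as lower without 79813), beside 12.7% of all genes. *Clu*, which encodes clusterin (chromosome 14 of GRCm38, 65968483 to 65981547), had 1782, 1821 and 1839 CPM in N and 3702, 3099 and 3281 CPM in TAT (log2 fold change 0.91 ± 0.19 (SE), adjusted p = 0.0683 and 0.00431), each TAT library above every N library. *Dhh*, a hedgehog ligand that Sertoli cells send to myoid and Leydig cells, had 17.97, 17.8 and 17.1 CPM in N and 56.1, 34.9 and 39.3 CPM in TAT (log2 fold change 1.28 ± 0.31 (SE), adjusted p = 0.0752 and 0.00434). *Sox9*, the transcription factor of Sertoli cell identity, had 72.05, 69.4 and 79.4 CPM in N and 151, 107 and 91.1 CPM in TAT (log2 fold change 0.59 ± 0.59 (SE), adjusted p = 0.565 and 0.04), and *Rhox8* had 167, 185 and 204 CPM in N and 366, 243 and 292 CPM in TAT (log2 fold change 0.68 ± 0.53 (SE), adjusted p = 0.458 and 0.0259). *Cst12*, a cystatin that the study names as a Sertoli cell gene, had 401, 408 and 418 CPM in N and 514, 569 and 471 CPM in TAT (log2 fold change 0.33 ± 0.46 (SE), adjusted p = 0.678 and 0.144). *Gata1*, a transcription factor of Sertoli cells, had 9.33, 12.2 and 11.5 CPM in N and 16.97, 16.3 and 13.8 CPM in TAT (log2 fold change 0.49 ± 0.99 (SE), adjusted p = 0.777 and 0.16). In 8 of the 24 genes TAT was above both N and TM of its own animal in all 3 animals, as in 400 of all 19293 genes tested (2.07%), among them *Sox9*, *Cst12*, *Gata1* and *Gstm6*. In TM, *Sox9* was 80.2, 96.4 and 9.89 CPM and *Gstm6* (named after its values were seen) 129, 156 and 12.6 CPM, lowest in KO animal 79853. Fetal Sertoli cell genes had a median of 0.77, and *Krt18*, a keratin of immature Sertoli cells, had 3.14, 1.21 and 1.18 CPM in N and 38.8, 4.23 and 10.6 CPM in TAT (log2 fold change 3.11 ± 0.72 (SE), adjusted p = 0.0746 and 0.00362). *Clu* (0.83), *Dhh* (1.11), *Sox9* (0.44), *Rhox8* (0.49) and *Gstm6* (0.77) did not pass with N and TAT alone when KO animal 79781 was left out (log2 fold change then in parentheses), and *Rhox8* (0.76) when 79853 was.

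**Figure D3:**
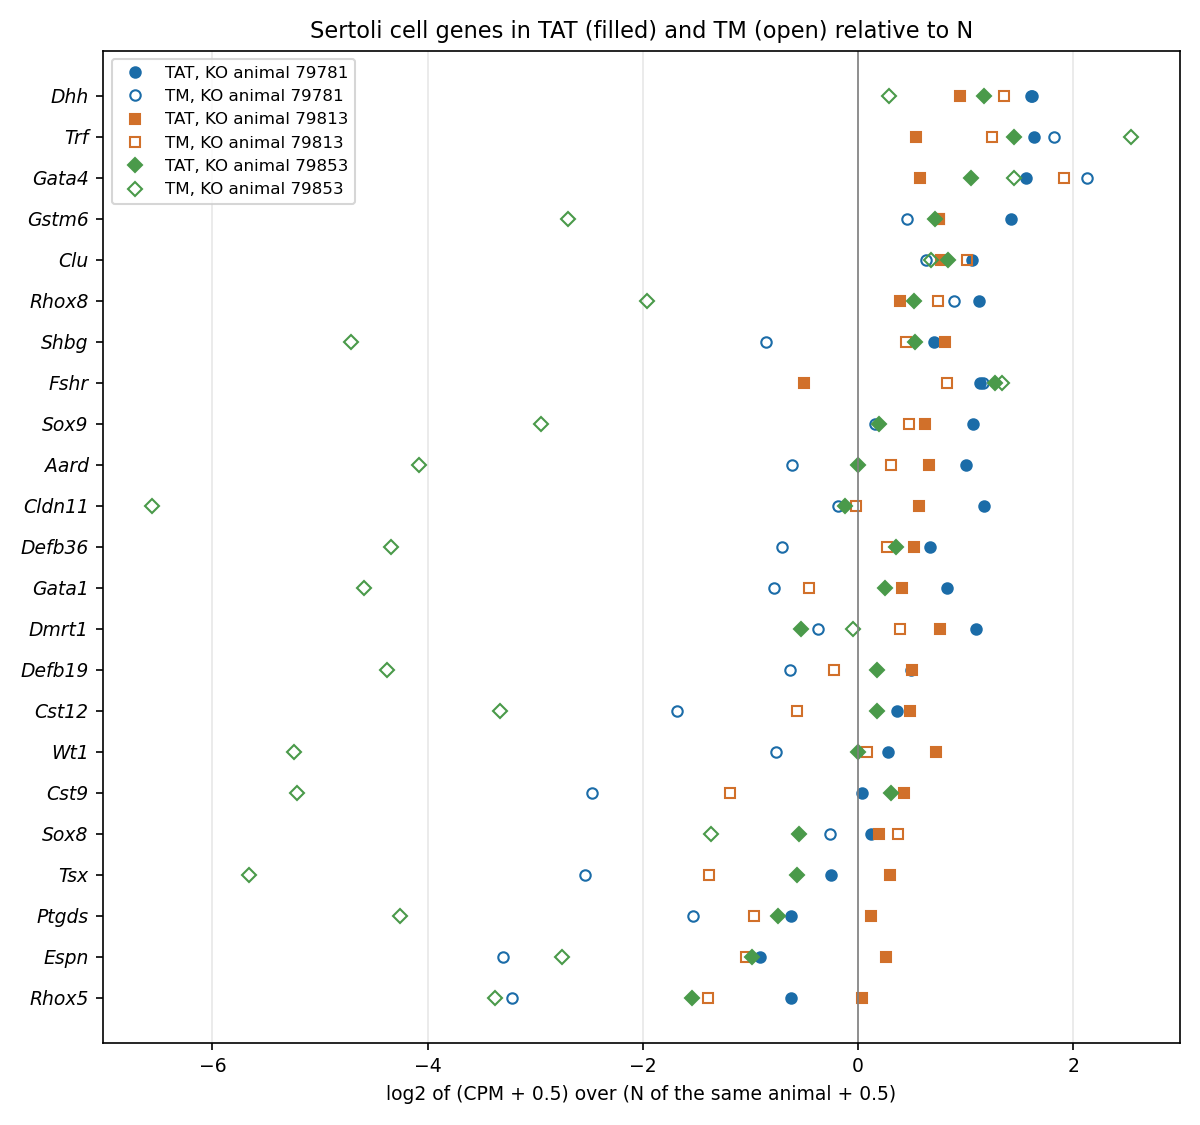
Log2 level of 23 Sertoli cell genes in TAT (filled) and TM (open) relative to N of the same KO animal, with 0.5 CPM added to each level. TM of KO animal 79853 lies far left of its TAT for most genes, as for *Sox9* with 9.89 CPM in TM and 91.1 CPM in TAT.

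Granulosa cell genes, those of the follicle cells of the ovary, had one of the highest list medians, close to that of the 5 red blood cell genes (2.07). Of 19 tested, 14 were higher in TAT in all 3 animals and none lower (median log2 fold change 2.08), and 14 of 18 passed (11, 14 and 12 with each animal left out), beside 12.7% of all genes passing as higher. Their TM to N medians were larger (4.18, 3.99 and 4.60 in the 3 animals). *Inhba*, the activin A subunit that the study names among its genes (chromosome 13, 16011851 to 16031621), had 60.8, 44.3 and 74.9 CPM in N and 319.5, 70.3 and 912 CPM in TAT (log2 fold change 2.38 ± 0.54 (SE), adjusted p = 0.073 and 0.00566), and *Inhbb* had 17.3, 17.2 and 28.9 CPM in N and 76.2, 21.8 and 185 CPM in TAT (log2 fold change 1.79 ± 0.42 (SE), adjusted p = 0.0747 and 0.00821). The lowest TAT level of *Inhba*, that of KO animal 79813, was below the highest N level, and the other TAT levels were above every N level. *Fst*, follistatin, which binds activin, had 5.63, 6.46 and 9.302 CPM in N and 39.3, 10.9 and 95.5 CPM in TAT (log2 fold change 2.42 ± 0.48 (SE), adjusted p = 0.0669 and 0.00472), and *Pmepa1*, a target of TGF beta signals, had 10.4, 10.9 and 12.4 CPM in N and 40.7, 23.5 and 43.8 CPM in TAT (log2 fold change 1.66 ± 0.23 (SE), adjusted p = 0.0661 and 0.00362). *Ccnd2*, cyclin D2, had 191, 189 and 185 CPM in N and 809, 343 and 836 CPM in TAT (log2 fold change 1.76 ± 0.30 (SE), adjusted p = 0.0661 and 0.00362), *Gja1*, connexin 43, had 52.1, 49.99 and 52.9 CPM in N and 267, 86.4 and 395 CPM in TAT (log2 fold change 2.08 ± 0.39 (SE), adjusted p = 0.0661 and 0.00374), and *Serpine2* had 35.98, 41.5 and 44.5 CPM in N and 425, 78.2 and 525 CPM in TAT (log2 fold change 2.81 ± 0.53 (SE), adjusted p = 0.0661 and 0.00374). *Nr5a2*, a nuclear receptor of steroid-making ovarian cells, had 5.67, 4.81 and 6.88 CPM in N and 42.9, 8.93 and 63.7 CPM in TAT (log2 fold change 2.47 ± 0.47 (SE), adjusted p = 0.0661 and 0.00393). In *Ccnd2*, *Gja1* and *Serpine2* TAT of KO animal 79813 was the lowest of the TAT libraries and above every N library. *Ccnd2* is also a member of the D cyclin list and *Gja1* of the blood-testis barrier list, so these members are not particular to granulosa cells. *Cyp19a1*, aromatase (named after its values were seen), had 9.46, 8.85 and 9.27 CPM in N and 21.99, 5.42 and 91.9 CPM in TAT, with TAT of KO animal 79813 below its N (log2 fold change 1.34 ± 0.67 (SE), adjusted p = 0.266 and 0.128). Of 15 activin pathway genes 5 passed as higher (4, 5 and 4), beside the same 12.7%, with a median of 0.74. *Cyp19a1* passed only when KO animal 79813, the animal with TAT below N, was left out (log2 fold change 2.32). That fit rests on KO animals 79781 and 79853 alone, and no conclusion is drawn from it. The log2 fold change of *Cyp19a1* was 1.34 without 79781 and 0.25 without 79853.

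Steroid synthesis genes were on balance higher in TAT. Genes of adult Leydig cells had a median of 0.23, with 4 of 12 passing as higher (1, 4 and 2) and 0 as lower. Over all genes 12.7% passed as higher. The 4 were *Prlr* (log2 fold change 1.39), *Agt* (1.65), *Lhcgr* (1.64) and *Hsd17b3*, given below. Of 17 synthesis genes 11 were higher in all 3 animals (median log2 fold change 1.11) and 9 of 16 passed (5, 11 and 8 with each animal left out). *Cyp11a1*, which starts steroid synthesis from cholesterol, had 93.03, 104 and 87.3 CPM in N and 498, 166 and 372 CPM in TAT (log2 fold change 1.79 ± 0.37 (SE), adjusted p = 0.0671 and 0.00385). *Hsd3b1*, the 3-beta-hydroxysteroid dehydrogenase, had 96.04, 104 and 105 CPM in N and 734, 173 and 1019 CPM in TAT (log2 fold change 2.48 ± 0.51 (SE), adjusted p = 0.0671 and 0.00393), and *Hsd17b1*, which makes estradiol from estrone, had 14.01, 15.6 and 19.4 CPM in N and 91.2, 27.4 and 179 CPM in TAT (log2 fold change 2.33 ± 0.45 (SE), adjusted p = 0.0661 and 0.00389). *Tspo*, a mitochondrial outer membrane protein abundant in steroid-making cells, had 24.5, 22.7 and 25.8 CPM in N and 69.9, 39.5 and 98.7 CPM in TAT (log2 fold change 1.42 ± 0.26 (SE), adjusted p = 0.0661 and 0.00389). *Insl3* and *Cyp17a1*, markers of adult Leydig cells that the study names, had 316, 254 and 282 CPM in N and 183, 298 and 158 CPM in TAT (log2 fold change -0.52 ± 0.50 (SE), adjusted p = 0.547 and 0.168) and 11.2, 9.12 and 8.34 CPM in N and 10.5, 12.9 and 20.2 CPM in TAT (log2 fold change 0.70 ± 0.65 (SE), adjusted p = 0.536 and 0.192), and the N and TAT ranges overlapped in both. *Hsd17b3*, which makes testosterone, had 1.46, 0.527 and 0.809 CPM in N and 7.904, 2.88 and 6.51 CPM in TAT (log2 fold change 2.73 ± 0.98 (SE), adjusted p = 0.152 and 0.00584). *Hsd17b3* was thus on the other side from *Insl3* in KO animals 79781 and 79853. WT held 5152, 2151 and 2222 CPM of *Insl3* and 113, 240.0 and 158 CPM of *Cyp17a1*, given without a test. *Insl3* passed only when KO animal 79813, the animal with TAT above N, was left out (log2 fold change -0.78). That fit rests on KO animals 79781 and 79853 alone, and no conclusion is drawn from it. The log2 fold change of *Insl3* was -0.27 without 79781 and -0.28 without 79853.

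Most genes of the interstitial matrix, the basement membrane, smooth muscle and blood endothelium lists were higher in TAT in all 3 animals, beside 30.9% of all genes. Of 22 interstitial matrix genes 20 were higher in all 3 animals (median log2 fold change 1.88) and 18 passed (14, 21 and 14 with each animal left out). *Col5a2*, a fibrillar collagen, had 1.81, 2.07 and 4.23 CPM in N and 12.5, 5.59 and 46.2 CPM in TAT (log2 fold change 2.73 ± 0.53 (SE), adjusted p = 0.0661 and 0.00362), and *Thbs1*, thrombospondin, had 3.91, 6.46 and 6.88 CPM in N and 42.8, 11.6 and 83.2 CPM in TAT (log2 fold change 2.71 ± 0.55 (SE), adjusted p = 0.067 and 0.00447). *Col6a1* had 27.6, 30.4 and 34.4 CPM in N and 125, 61.6 and 168 CPM in TAT (log2 fold change 1.94 ± 0.45 (SE), adjusted p = 0.0746 and 0.00362). Of 22 basement membrane genes 13 passed (5, 15 and 9, median 1.14), with *Col4a1* at 30.95, 28.2 and 49.6 CPM in N and 104, 62.3 and 250.2 CPM in TAT (log2 fold change 1.85 ± 0.44 (SE), adjusted p = 0.0747 and 0.00362). *Serpinh1*, the collagen chaperone, had 52.2, 58.4 and 44.2 CPM in N and 307, 145 and 474 CPM in TAT (log2 fold change 2.53 ± 0.43 (SE), adjusted p = 0.0661 and 0.00362), and *Mmp14*, a matrix metalloprotease, had 14.1, 18.7 and 25.7 CPM in N and 61.9, 36.9 and 95.2 CPM in TAT (log2 fold change 1.699 ± 0.26 (SE), adjusted p = 0.0661 and 0.00362). For peritubular myoid and smooth muscle genes the median was 1.61 and 10 of 14 passed (7, 12 and 6), and *Acta2*, smooth muscle actin, had 149, 121 and 98.9 CPM in N and 415, 183 and 1048 CPM in TAT (log2 fold change 2.13 ± 0.75 (SE), adjusted p = 0.149 and 0.0106). For endothelial genes it was 1.43 and 10 of 23 passed as higher (2, 13 and 3), beside 12.7% of all genes. Of 6 lymphatic endothelium genes 1 was higher and 2 were lower in all 3 animals, beside 30.9% and 30.6% of all genes. As higher 1 of these 6 passed (0, 2 and 1), so that this small list was near the background. *Esam*, an endothelial adhesion molecule, had 3.65, 4.54 and 3.95 CPM in N and 18.9, 8.103 and 21.3 CPM in TAT (log2 fold change 1.97 ± 0.55 (SE), adjusted p = 0.098 and 0.00621). *Ctla2a*, which the study names among vessel genes, had 2.71, 2.67 and 3.11 CPM in N and 7.498, 10.9 and 39.1 CPM in TAT (log2 fold change 2.52 ± 0.65 (SE), adjusted p = 0.0846 and 0.00393), *Cald1*, caldesmon of smooth muscle, had 64.01, 68.8 and 78.2 CPM in N and 173, 99.7 and 416 CPM in TAT, and *Lamb2*, a laminin chain, had 19.3, 22.4 and 21.7 CPM in N and 48.3, 40.7 and 47 CPM in TAT. The 6 red blood cell genes found in the data, 5 of them tested, summed to 566 to 576 CPM in N, 1708 to 3285 CPM in TAT and 19203 to 48963 CPM in TM. The sum was above N in TAT of every animal. Of the 5 genes tested the 4 globin genes were above N in all 3 animals and 1 was not, with *Hbb-bs* at 244, 242 and 234 CPM in N and 1211, 805 and 1496 CPM in TAT. In TM, *Hbb-bs* had 12413, 9325 and 25355 CPM. *Hba-a1*, another haemoglobin gene, had 53.6, 57.3 and 54.9 CPM in N and 278, 173 and 356 CPM in TAT (adjusted p = 0.0661 over 9 libraries). TAT and TM were picked by their vessels, and the part of blood in the vessel and immune values was not tested. *Esam* (1.66) and *Lamb2* (1.02) did not pass with N and TAT alone when KO animal 79781 was left out (log2 fold change then in parentheses). *Acta2* passed without KO animal 79853 with a log2 fold change of 1.04, against 1.82 with all 3. *Cald1* passed without KO animal 79853 with a log2 fold change of 0.98, against 1.48 with all 3.

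Most macrophage genes were higher in TAT. Of 21 macrophage genes 18 were higher in all 3 animals (median log2 fold change 1.12), and 12 passed as higher and 1 as lower (4, 10 and 12 higher with each animal left out), beside 12.7% and 11.6% of all genes. *Lyz2*, lysozyme, had 42.3, 46.1 and 56.4 CPM in N and 271, 153 and 202 CPM in TAT (log2 fold change 2.095 ± 0.32 (SE), adjusted p = 0.0661 and 0.00362), and *Trem2*, a receptor of phagocytes, had 1.93, 1.53 and 2.395 CPM in N and 14.6, 7.91 and 14.5 CPM in TAT (log2 fold change 2.65 ± 0.47 (SE), adjusted p = 0.0661 and 0.00362). *Cx3cr1*, the fractalkine receptor, had 2.58, 5.199 and 4.39 CPM in N and 23.7, 11.7 and 13.2 CPM in TAT (log2 fold change 1.96 ± 0.48 (SE), adjusted p = 0.0778 and 0.00676) and overlaps *Wdr48*, *Gorasp1*, *Ttc21a* and *Csrnp1*, each with more counts than *Cx3cr1* itself. *Aif1* was the member lower in TAT, with 356, 365 and 309 CPM in N and 178, 219.8 and 99.4 CPM in TAT (log2 fold change -1.16 ± 0.36 (SE), adjusted p = 0.117 and 0.00519). *B2m*, the light chain of class I antigen presentation, had 68.7, 72.5 and 60.2 CPM in N and 191, 139.7 and 240.1 CPM in TAT (log2 fold change 1.505 ± 0.24 (SE), adjusted p = 0.0661 and 0.00362). Complement genes had a median of 1.39 with 8 of 11 passing (5, 8 and 6). Lysosome genes had a median of 1.20 and 17 of 20 passed (7, 17 and 13), and *Ctsb*, cathepsin B, had 93.7, 95.2 and 116 CPM in N and 399, 213 and 406 CPM in TAT (log2 fold change 1.73 ± 0.32 (SE), adjusted p = 0.0661 and 0.00362). *C3ar1*, a receptor for complement fragment C3a, had 0.731, 1.53 and 1.28 CPM in N and 6.69, 6.94 and 7.296 CPM in TAT (log2 fold change 2.59 ± 0.40 (SE), adjusted p = 0.0661 and 0.0046). Lymphocyte genes had a median of 0.76 that became -0.37 without KO animal 79813, with medians of 1.12, 0.20 and -0.23 in the animals. Of the 9 tested, 2 were higher in TAT in all 3 animals, 1 was lower and 6 were mixed. The lower one was *Cd3d*, a chain of the T cell receptor complex, with 31.6, 25.9 and 22.3 CPM in N and 14.3, 15.99 and 5.94 CPM in TAT. *Cd3e*, another chain of that complex, was on the other side at very low levels, with 0.860, 0.255 and 0.0 CPM in N and 1.01, 0.910 and 0.417 CPM in TAT. No lymphocyte gene passed as higher. Haemoglobin levels, given above, were higher in the same TAT libraries, and their part in these values was not tested. *Cx3cr1* (1.41), *Aif1* (-1.15) and *Cd3d* (-1.26) did not pass with N and TAT alone when KO animal 79781 was left out (log2 fold change then in parentheses).

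More growth factors of the stem cell niche were higher than lower in TAT. Of 16 niche factors 12 were higher in all 3 animals (median log2 fold change 1.12) and 7 of 15 passed as higher (3, 8 and 5 with each animal left out), beside 12.7% of all genes. *Igf1* had 17.8, 16.2 and 13.9 CPM in N and 66.1, 33.7 and 83.95 CPM in TAT (log2 fold change 1.88 ± 0.30 (SE), adjusted p = 0.0661 and 0.00362), and *Tgfb2* had 2.62, 1.36 and 1.18 CPM in N and 16.1, 3.94 and 15.6 CPM in TAT (log2 fold change 2.75 ± 0.56 (SE), adjusted p = 0.0671 and 0.00411). *Gdnf*, the stem cell factor made by Sertoli and myoid cells, had 0.688, 2.04 and 2.55 CPM in N and 5.07, 1.82 and 11.3 CPM in TAT (log2 fold change 1.58 ± 0.59 (SE), adjusted p = 0.164 and 0.0783), with TAT of KO animal 79813 below its N. *Fgf14*, a fibroblast growth factor homologous factor that the study names, was lower, with 14.3, 12.8 and 9.96 CPM in N and 3.95, 8.23 and 2.29 CPM in TAT (log2 fold change -1.56 ± 0.50 (SE), adjusted p = 0.126 and 0.0139). Among the 19 mitotic cycle genes 10 passed (1, 10 and 4), with *Mcm2*, a replication helicase subunit, at 11.9, 13.3 and 12.01 CPM in N and 35.4, 22.1 and 43.1 CPM in TAT (log2 fold change 1.43 ± 0.29 (SE), adjusted p = 0.0669 and 0.00575). *Bax*, a p53 target that promotes cell death, had 7.87, 5.11 and 6.04 CPM in N and 20.4, 11.4 and 29.8 CPM in TAT (log2 fold change 1.65 ± 0.32 (SE), adjusted p = 0.0661 and 0.00519). The unfolded protein response had members on both sides, with a median of 0.13 that was -0.06 with RLE size factors. Of its 24 genes 2 passed as higher (0, 4 and 1) and 4 as lower (0, 4 and 1), beside 12.7% and 11.6% of all genes. *Xbp1*, a transcription factor of that response, had 37.1, 43.2 and 32.3 CPM in N and 109, 60.8 and 124 CPM in TAT (log2 fold change 1.36 ± 0.29 (SE), adjusted p = 0.0688 and 0.0065) and *Herpud1*, of endoplasmic reticulum degradation, had 235, 191 and 174 CPM in N and 111, 124 and 85.1 CPM in TAT (log2 fold change -0.90 ± 0.18 (SE), adjusted p = 0.0663 and 0.00759). The 13 genes of the mitochondrial genome were higher in all 3 animals in 12 cases and 8 passed (0, 8 and 4), with *mt-Cytb* at 1514, 1272 and 1232 CPM in N and 2981, 2092 and 3131 CPM in TAT (log2 fold change 1.04 ± 0.22 (SE), adjusted p = 0.0671 and 0.00399). *Fgf14* (-1.32), *Mcm2* (1.32), *Xbp1* (1.25), *Herpud1* (-0.80) and *mt-Cytb* (1.06) did not pass with N and TAT alone when KO animal 79781 was left out (log2 fold change then in parentheses). *Gdnf* passed only when KO animal 79813, the animal with TAT below N, was left out (log2 fold change 2.52). That fit rests on KO animals 79781 and 79853 alone, and no conclusion is drawn from it. The log2 fold change of *Gdnf* was 1.02 without 79781 and 1.29 without 79853.

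Among single genes that passed, with a mean of at least 10 CPM over the 6 libraries, *Col11a1*, a fibrillar collagen, and *Gpc3*, a proteoglycan of the cell surface, were among the 12 with the largest positive fold change (ranked with N and TAT alone, a choice made after the 9-library fit called no gene). *Col11a1* had 0.8598, 1.65 and 0.964 CPM in N and 21.6, 5.12 and 62.7 CPM in TAT (log2 fold change 4.38 ± 0.92 (SE), adjusted p = 0.0675 and 0.00385), and *Gpc3* had 1.98, 2.6 and 1.74 CPM in N and 40.3, 6.79 and 73.5 CPM in TAT (log2 fold change 4.17 ± 1.17 (SE), adjusted p = 0.0983 and 0.00385). Both were under 3 CPM in every N library and reached that mean through TAT of KO animals 79781 and 79853, so that their rank is a description, and TAT of KO animal 79813 was the lowest of the TAT libraries. Among the most lowered were *1700016P04Rik* with 981, 364 and 390.2 CPM in N and 145, 194 and 80.1 CPM in TAT (log2 fold change -2.14 ± 0.53 (SE), adjusted p = 0.0783 and 0.00362) and *Wnt3*, a secreted ligand, with 20.1, 20.2 and 21.7 CPM in N and 4.104, 12.9 and 3.44 CPM in TAT (log2 fold change -1.83 ± 0.73 (SE), adjusted p = 0.185 and 0.00726). *Mfap2*, *Ephx2* and *Adh1* were picked for a wide range of the TAT to N ratio over animals, so that their spread follows from that choice. The pick asked for a mean of at least 50 CPM over the 6 libraries, which these genes met through TAT, each N library holding less. *Mfap2*, a microfibril protein, had 12.1, 15.1 and 9.43 CPM in N and 128, 22.3 and 233 CPM in TAT. *Ephx2*, a soluble epoxide hydrolase, had 16.7, 14.1 and 14.3 CPM in N and 83.6, 21.4 and 218 CPM in TAT. *Adh1*, an alcohol dehydrogenase, had 19.6, 18.2 and 15.7 CPM in N and 261, 37.2 and 77.3 CPM in TAT, the latter highest in KO animal 79781. Picked in turn for a narrow range among genes that passed, so that their close sizes follow from the choice, were *Gsn* and *Atp2b1*. *Gsn*, gelsolin, had 80.9, 70.04 and 69.2 CPM in N and 161, 139.8 and 153 CPM in TAT (log2 fold change 1.08 ± 0.50 (SE), adjusted p = 0.244 and 0.00389). *Atp2b1*, a calcium pump, had 67.7, 58.3 and 80.5 CPM in N and 115, 97.6 and 136 CPM in TAT (log2 fold change 0.77 ± 0.20 (SE), adjusted p = 0.0832 and 0.012). *Wnt3* (-1.59), *Gsn* (1.1) and *Atp2b1* (0.78) did not pass with N and TAT alone when KO animal 79781 was left out (log2 fold change then in parentheses). *Mfap2* passed without KO animal 79853 with a log2 fold change of 1.96, against 2.96 with all 3. *Ephx2* passed without KO animal 79853 with a log2 fold change of 1.46, against 2.31 with all 3.

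**Figure D4:**
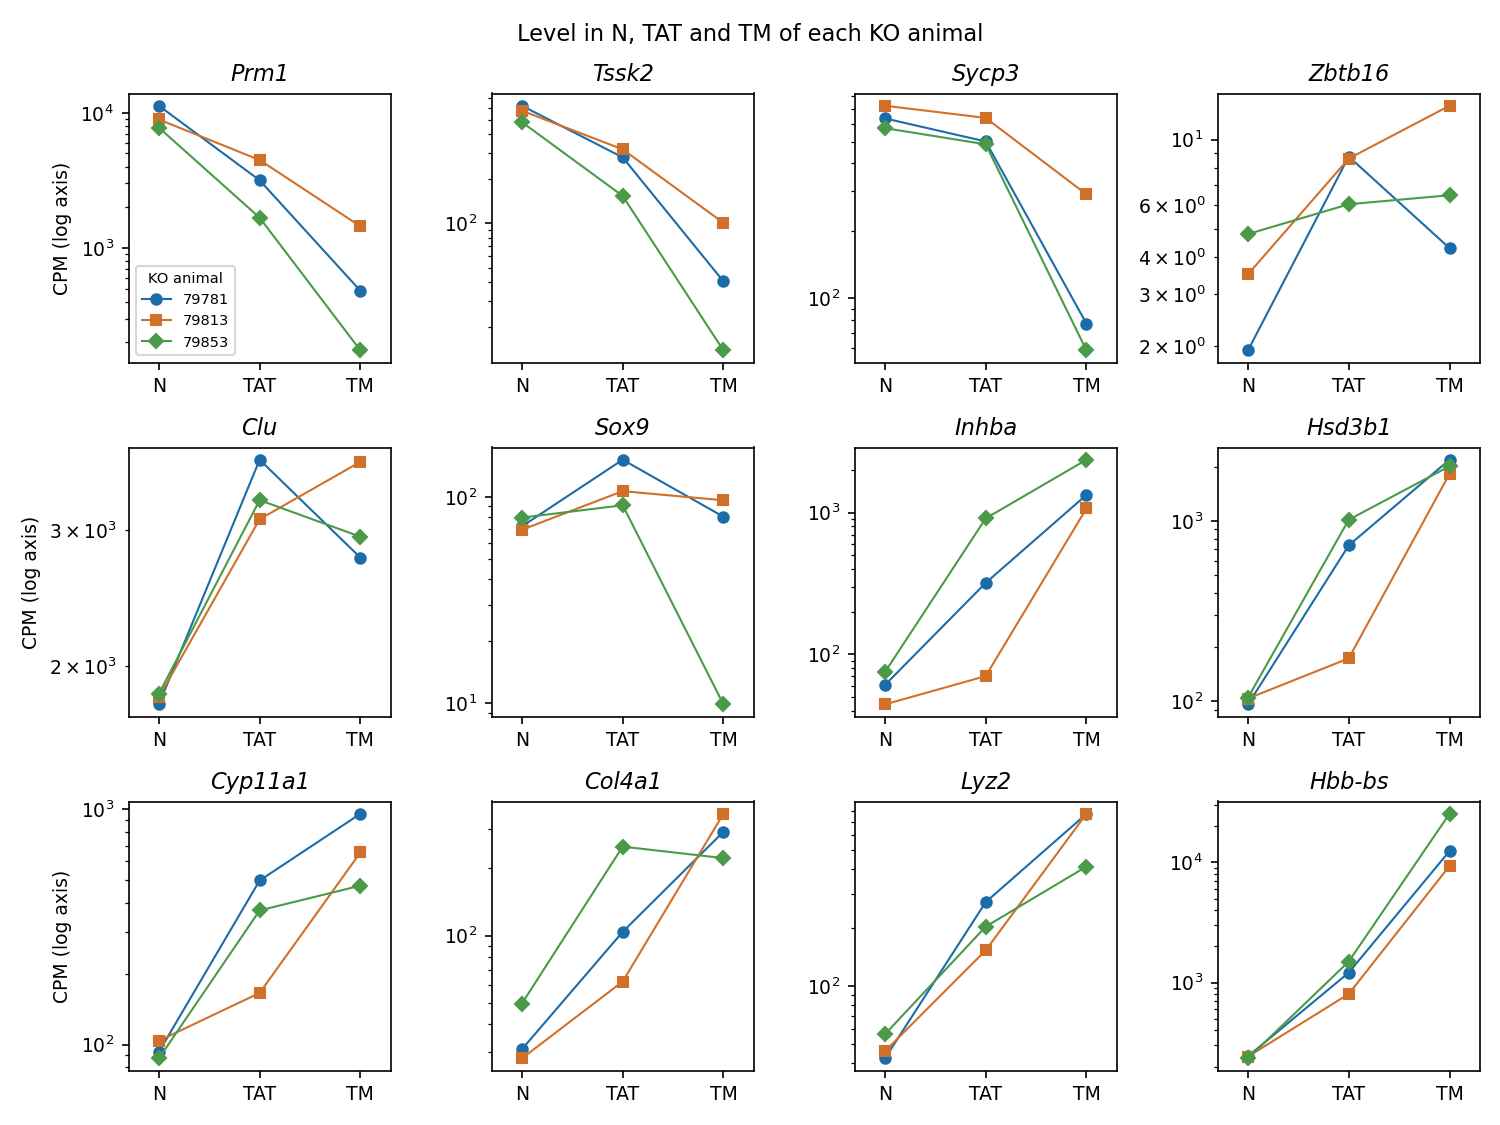
CPM (log axis) of 12 named genes in N, TAT and TM, 1 line per KO animal. *Prm1* and *Tssk2* step down from N to TM, *Sox9* is highest in TAT of each animal, and *Inhba*, *Hsd3b1* and *Hbb-bs* step up.

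For the following lists the share passing stands beside the 12.7% of all genes that passed as higher and the 11.6% that passed as lower, and the shares of hypoxia, nuclear oxidative phosphorylation and mitochondrial ribosomal genes were near that background. The median log2 fold change of p53 target and cell death genes was 1.11 (8 of 16 passing as higher and 0 as lower, and with each animal left out 3, 8 and 5 higher), and that of interferon response genes was 1.54 (8 of 17 passing as higher and 0 as lower, and with each animal left out 2, 9 and 4 higher). For antigen presentation it was 0.93 (7 of 15 passing as higher and 0 as lower, and with each animal left out 3, 7 and 4 higher). Immediate early genes had 0.84 (6 of 17 passing as higher and 2 as lower, and with each animal left out 2, 7 and 5 higher), and *Jun*, a subunit of the AP-1 factor, had 22.2, 19.2 and 27.2 CPM in N and 75.8, 34.3 and 82.4 CPM in TAT (log2 fold change 1.45 ± 0.26 (SE), adjusted p = 0.0661 and 0.00374), while *Klf4*, a transcription factor also found in round spermatids, was on the other side with 161, 138 and 185 CPM in N and 101, 107 and 66.03 CPM in TAT (log2 fold change -0.81 ± 0.26 (SE), adjusted p = 0.129 and 0.0237). D cyclins and cell cycle inhibitors had 0.75 (5 of 12 passing as higher and 1 as lower, and with each animal left out 1, 7 and 2 higher), and *Cdkn1c*, which encodes the inhibitor p57, was the member lower in TAT with 52.9, 39.7 and 36.1 CPM in N and 24.9, 25.1 and 11.99 CPM in TAT (log2 fold change -1.08 ± 0.33 (SE), adjusted p = 0.115 and 0.0088). Retinoid genes had 0.38 (5 of 19 passing as higher and 0 as lower, and with each animal left out 1, 5 and 4 higher), blood-testis barrier genes 0.49 (3 of 14 passing as higher and 0 as lower, and with each animal left out 1, 6 and 3 higher), and hypoxia genes 0.44 (2 of 13 passing as higher and 0 as lower, and with each animal left out 0, 4 and 0 higher). Cholesterol synthesis genes had 0.33 (6 of 23 passing as higher and 0 as lower, and with each animal left out 1, 7 and 3 higher), and proteasome genes 0.29 (8 of 38 passing as higher and 1 as lower, and with each animal left out 1, 12 and 2 higher). Heat shock genes had -0.07 (4 of 15 passing as higher and 3 as lower, and with each animal left out 0, 5 and 3 higher), a median that was 0.08 with total library size, and *Hspd1*, a mitochondrial chaperone whose gene overlaps *Hspe1*, had 92.6, 106 and 107 CPM in N and 261, 153 and 333 CPM in TAT (log2 fold change 1.28 ± 0.29 (SE), adjusted p = 0.0734 and 0.0055). Nuclear genes of oxidative phosphorylation had 0.27 (13 of 76 passing as higher and 1 as lower, and with each animal left out 2, 25 and 5 higher) and mitochondrial ribosomal protein genes 0.25 (12 of 76 passing as higher and 0 as lower, and with each animal left out 0, 20 and 5 higher). By annotated type, 14.9% of 15598 protein coding genes passed as higher and 11.1% as lower, against 1.63% and 18.6% of 918 lincRNA genes and 0.512% and 17.9% of 782 antisense genes. *Klf4* (-0.89), *Cdkn1c* (-1.09) and *Hspd1* (1.11) did not pass with N and TAT alone when KO animal 79781 was left out (log2 fold change then in parentheses), and *Klf4* (-0.51) when 79853 was.

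The testes of KO animal 79813 were the only repeat within an animal. Across genes their log2 ratios of TAT to N had a Pearson r of 0.174, against 0.328 to 0.474 between animals. These values are given as a description since genes are not independent. The single pieces held 20607367 to 31249037 counts, against 17413667 to 32382283 in the N and TAT libraries of the other animals. Spermatid genes were lower in both, with list medians of -0.68 and -0.83, and macrophage genes higher in both (1.27 and 0.89). *Prm1* had 7919.7 CPM in N and 4294 CPM in TAT of testis 1, and 10171 and 4684 CPM in testis 2. *Lyz2* had 37.5 CPM in N and 178 CPM in TAT of testis 1, and 55.96 and 134 CPM in testis 2. Both genes kept their direction in both testes. Granulosa cell genes had a median of 0.33 in testis 1 and 1.12 in testis 2. *Inhba* had 60.9 CPM in N and 39.01 CPM in TAT of testis 1, and 28.96 and 97.1 CPM in testis 2, so that TAT was below N in testis 1. *Fst* had 8.51 CPM in N and 8.01 CPM in TAT of testis 1, and 4.58 and 13.5 CPM in testis 2, and *Hsd3b1* had 143 CPM in N and 158 CPM in TAT of testis 1, and 66.4 and 188 CPM in testis 2. *Nr5a2* had 6.96 CPM in N and 6.78 CPM in TAT of testis 1, and 2.79 and 10.8 CPM in testis 2. In *Inhba*, *Fst* and *Hsd3b1* N was higher in testis 1 than in testis 2, and each testis has 1 piece per region, so no test was possible.

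**Figure D5:**
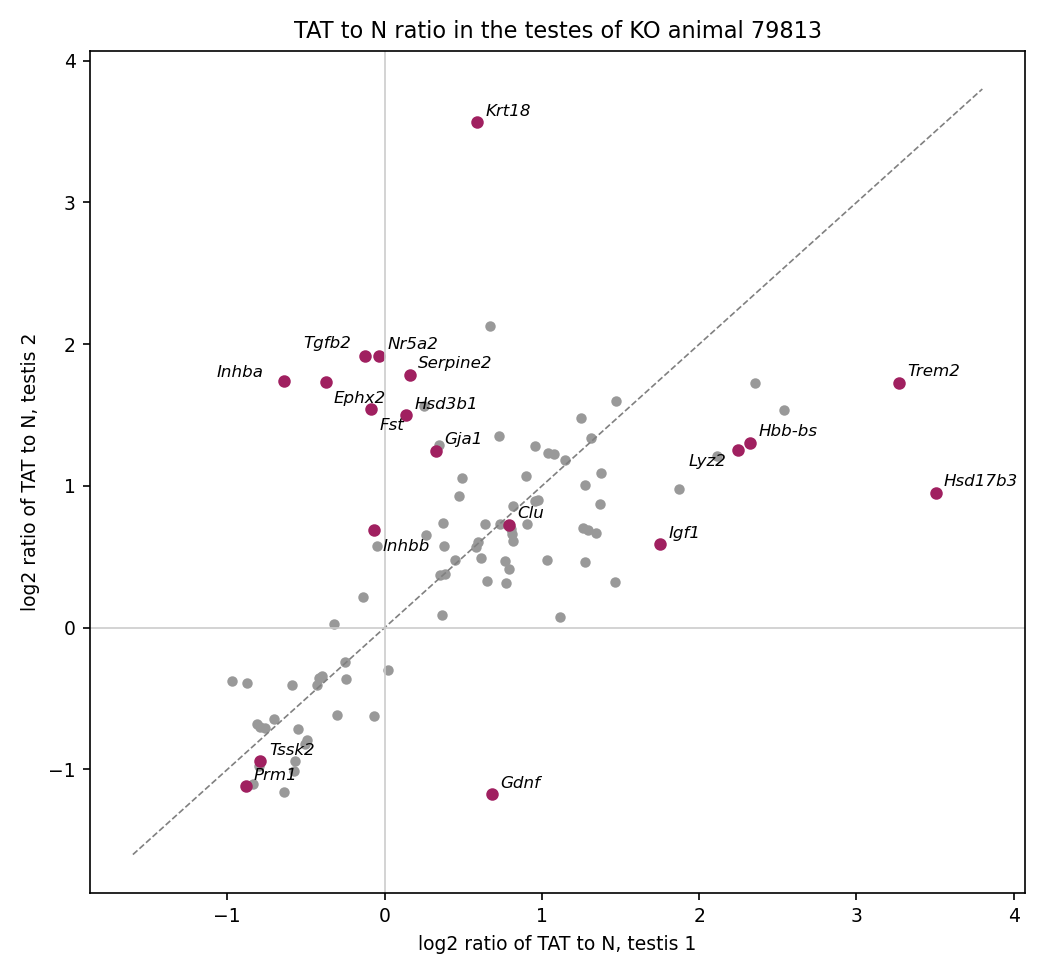
Log2 ratio of TAT to N in testis 2 against testis 1 of KO animal 79813 for the genes named in the text, with 19 of them labelled and the line of equal ratios dashed. *Inhba*, *Ephx2* and *Tgfb2* lie left of 0 in testis 1 and above 1 in testis 2, and *Prm1* and *Tssk2* lie below 0 in both.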

How the data were processed

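The authors sequenced poly(A)-primed, multiplexed libraries of microdissected testis pieces, and the deposited values are estimated counts per gene (STAR in nf-core/rnaseq, GRCm38). The study's methods name Salmon for counting, while the submitters' processing notes name featureCounts, beside STAR 2.6.1d, Subread 2.0.1, Picard 2.23.9, FastQC 0.11.9 and MultiQC 1.12. The annotation release, the strand setting and the use of the molecular identifiers in counting are not given in the sources used here. Without strand, reads of *Tspo* and *Mcat*, *Ctsb* and *Fdft1*, *Col4a1* and *Col4a2*, and *Tssk6* and *Ndufa13*, which overlap, cannot be told apart. Which of the counters made the table was not settled, though some values are not whole. Salmon would divide reads between near-identical genes and featureCounts may leave such reads out, and counts of amplified reads are not independent molecules where identifiers were not used.

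Counts of pieces from 1 animal and region were added and then rounded (17413661 to 61798383 per N or TAT library). TAT was tested against N in R 4.3.3 with edgeR 4.0.16 (TMM, filterByExpr, quasi-likelihood test, Benjamini-Hochberg adjustment over all genes tested) on 9 KO libraries, N, TAT and TM of 3 animals, with the animal as a block. The pairing comes from the labels, which give the animal of each piece, and libraries of an animal deviated from their region means with correlations of 0.0164, 0.0321 and 0.0666. Between N and TAT of different animals these correlations ran from -0.0614 to 0.0306. The ranges overlap and all values are near 0, so the counts themselves show little pairing by animal. The SE is the log2 fold change divided by the square root of F. Since that fit called no gene, calls are described from the planned fit of the 6 N and TAT libraries, a choice made after its results were seen, as were the repeats of that fit under other settings. Alternatives were total library size, RLE size factors, testing without the low-count filter, DESeq2 1.42.0, limma-voom (limma 3.58.1), no block, pieces as libraries, single testes of KO animal 79813, thinned counts and each animal left out. The script was tested on simulated counts with known changes.

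Genes were named by a rule: up to 12 called genes per direction with the largest fold change (mean of at least 10 CPM), up to 4 members of each of 45 gene lists by p and called members against their list, genes the study names, and 10 genes each with the widest and narrowest range over animals (mean of at least 50 CPM). The first and last parts of the rule used the calls of N and TAT alone. Some named genes are not reported here. *Prm2*, *Gstm6* and *Cyp19a1* were chosen after their values were seen. Members and lists were chosen with earlier results of these data known, and genes the study named from these libraries are no independent evidence. Of 23362 genes in the table, 23213 had a position in GENCODE M21, and 29 symbols stand for more than 1 identifier. P-values of fits with all animals measure the spread over 3 animals, and those with an animal left out rest on the animals that remain. In the 9-library fit that spread is taken from N, TAT and TM together, with 4 residual degrees of freedom. With N and TAT alone there are 2, and edgeR also draws on the spread of other genes.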

Additional observations from a re-analysis of the deposited data

How the results depend on the processing

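The count of genes that differed between TAT and N depended on the libraries and tool in the fit. With 9 KO libraries, no gene was called in edgeR with TMM or RLE scaling, without the filter, without the animal block (0 higher and 0 lower) or without the fold threshold. Counts higher and lower were 2367 and 2167 with N and TAT libraries only, 1183 and 34 with total library size, 1886 and 1861 in DESeq2, 138 and 15 in limma-voom with the animal as a block, 1450 and 838 in limma-voom on 17 libraries, 1981 and 520 with pieces as libraries, 15 and 0 with testis 1 only of KO animal 79813, and 426 and 26 with thinned counts. Leaving out an animal gave 0 to 1028 higher and 0 to 368 lower. With N and TAT alone, removing the block gave 2285 higher and 1765 lower, and total library size gave 1343 lower. Leaving out an animal gave 530 to 3161 higher and 269 to 3035 lower. Other settings stayed within 1.5 times of the main counts. The cause of these differences was not tested.

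Of the named genes, *Gfra1* changed its sign, around a log2 fold change of -0.05. In the 9-library fit it was 0.087 with total library size, 0.0049 with N and TAT only, 0.079 in limma-voom with the block and 0.047 in limma-voom on 17 libraries, and leaving out an animal gave -0.118 to 0.115. With N and TAT alone (0.0049) it was -0.0131 with RLE size factors, -0.0129 in DESeq2, -0.00213 without the filter and -0.054 with testis 1 only, and leaving out an animal gave -0.109 to 0.139. The list medians that changed sign were those of lymphocyte, unfolded protein response and heat shock genes, and 47 of 630 list medians moved by more than the spread. The smallest summed library held 17413661 counts, and genes of a few CPM have the widest errors.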

Other observations

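Of the 120 genes on the Y chromosome tested with N and TAT alone, 2.5% passed as higher in TAT and 10.8% as lower, beside 12.7% and 11.6% of all genes, so that the share passing as lower was near the background. Their median log2 fold change with N and TAT alone was -1.04, the lowest of any chromosome, against 0.015 over all genes. Of 16 genes of the mitochondrial chromosome, 8 passed as higher and none as lower. TAT was below both N and TM of the same animal in all 3 animals for 141 of 19293 genes (0.731%), and above both for 400. Groups did not overlap for 4242 genes higher in TAT (22.0%) and 4087 lower (21.2%).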
